A study of Mus musculus with 61 samples.

Results

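A set of 8 genes of the G1 phase of the cell cycle was followed in mouse forebrain, midbrain, hindbrain and liver: the D cyclins Ccnd1, Ccnd2 and Ccnd3, the E cyclins Ccne1 and Ccne2, and the kinases Cdk2, Cdk4 and Cdk6. They were taken from a deposited table of 43346 gene identifiers by matching each identifier to its GENCODE symbol, and all 8 were found. The matching itself used no measured values. The table held 61 bulk RNA-seq libraries in TPM (a level normalized for transcript length and library total): 14 from liver, 15 from forebrain and 16 each from midbrain and hindbrain. The brain regions were sampled at E10.5, E11.5, E12.5, E13.5, E14.5, E15.5, E16.5 and P0 (embryonic days and the day of birth), and liver from E11.5 on. Each group had 2 libraries, except forebrain E10.5 with 1. The labels name no strain, genotype or treatment. All 8 members reached 1 TPM in at least 2 libraries and were among the 18655 genes tested.

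D cyclins are made in response to mitogens and bind CDK4 or CDK6. These kinases phosphorylate the retinoblastoma protein and its relatives, which releases E2F transcription factors. E2F factors then turn on genes for S phase, among them the E cyclins, which bind CDK2 and carry the cell across the G1/S boundary. In the developing brain, dividing progenitors line the ventricles and give rise to neurons that have left the cycle. The fetal liver holds dividing hepatoblasts and is also a site of blood formation.

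The genes lie on 6 mouse chromosomes (mm10, positions from GENCODE M21). Ccnd1 (ENSMUSG00000070348.4) spans chr7:144929931-144939925 and Ccne1 (ENSMUSG00000002068.12) chr7:38097984-38107534, both on the minus strand. Ccnd2 (ENSMUSG00000000184.9, minus strand) spans chr6:127125162-127152193, and Ccnd3 (ENSMUSG00000034165.12, plus strand) chr17:47505051-47599691. Ccne2 (ENSMUSG00000028212.12, plus strand) spans chr4:11191351-11204779. Cdk4 (ENSMUSG00000006728.8, plus strand, chr10:127063534-127067920) and Cdk2 (ENSMUSG00000025358.11, minus strand, chr10:128697939-128705031) share chromosome 10, and Cdk6 (ENSMUSG00000040274.7, plus strand) spans chr5:3341485-3531008. Every member except Ccne1 overlaps a gene on the opposite strand, for example Bysl for Ccnd3, Pmel for Cdk2 and Tspan31 for Cdk4. The library kit marks strand, but whether the counting used it is not given in the sources used here, so reads of overlapping partners could be mixed. The pseudogene Ccnd3-ps was listed at 0 to 0.25 TPM.

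Promoters are shown for Cdk4, the member with the highest TPM in each of the 61 libraries, and for Cdk2, the member with a match to the E2F motif. RefSeq (GRCm38.p6) gave a promoter for 5 of the 8 members (Ccnd3, Ccne1, Cdk2, Cdk4 and Cdk6), from 250 bases before to 50 bases after the start. Both an E-box and an E2F motif were searched on both strands. The E-box CACGTG, which reads the same on both strands and is known as a site of the Myc protein family, occurred 4 times before the Cdk4 start, with first bases at -172, -118, -98 and -11. It occurred once in the Cdk6 promoter, at -220, and in none of the other members' promoters. Of 32851 promoters of the same 300 bases, 2349 (7.15%) held at least 1 match and 8 (0.0244%) held 4 or more. The E2F letters TTTCCCGC, TTTGGCGC, TTTGCCGC and TTTCGCGC occurred once among the members, in the Cdk2 promoter at -140, and in 744 (2.26%) of the 32851. The 2 motifs did not overlap in any member. A match describes the letters in this window and is not evidence of binding. Capitals mark the E-boxes in bases -180 to -1 of Cdk4 (chr10:127063355-127063534, plus strand) and the E2F match in bases -160 to -101 of Cdk2 (chr10:128705152-128705211, minus strand).
Cdk4: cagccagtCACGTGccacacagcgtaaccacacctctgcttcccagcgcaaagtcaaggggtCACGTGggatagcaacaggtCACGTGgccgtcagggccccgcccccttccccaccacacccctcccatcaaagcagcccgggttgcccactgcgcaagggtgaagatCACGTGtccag
Cdk2: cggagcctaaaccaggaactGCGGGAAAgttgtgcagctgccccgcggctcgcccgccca

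Several libraries stood apart. Alb, serum albumin, was at 2586 TPM or more in liver. The 2 libraries labelled midbrain E15.5 held 78.0 and 87.6 TPM of Hoxb3, a hindbrain gene, and the 2 labelled hindbrain E15.5 held 0.15 and 0.24 TPM, while other midbrain libraries held 0.01 to 2.08 TPM and other hindbrain libraries 22.3 to 147 TPM. These 4 libraries go against their labels, and results that rest on them were also computed without them. The 6 brain libraries of E12.5 held 3.64 to 112 TPM of Alb, against 0 to 28.4 TPM at the other brain stages. The ribosomal gene Rps12l1 (at least 700 TPM) and the pseudogene Rpl30-ps9 (under 100 TPM) together set apart 29 libraries. These were the libraries of E11.5, E14.5, E16.5 and P0 except both midbrain P0 libraries and 1 hindbrain P0 library. This split follows stage, so a difference between groups inside and outside the 29 libraries cannot be told apart from it. Such differences include E11.5 against E10.5, E12.5, E13.5 or E15.5, and E14.5 against E13.5 or E15.5. They also include midbrain P0 against E11.5 or against forebrain P0. Libraries outside the 29 differ among themselves too: Rps12l1 was at 0 TPM in forebrain E12.5 and at 944 to 1096 TPM in forebrain E13.5.

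**Figure D1:**
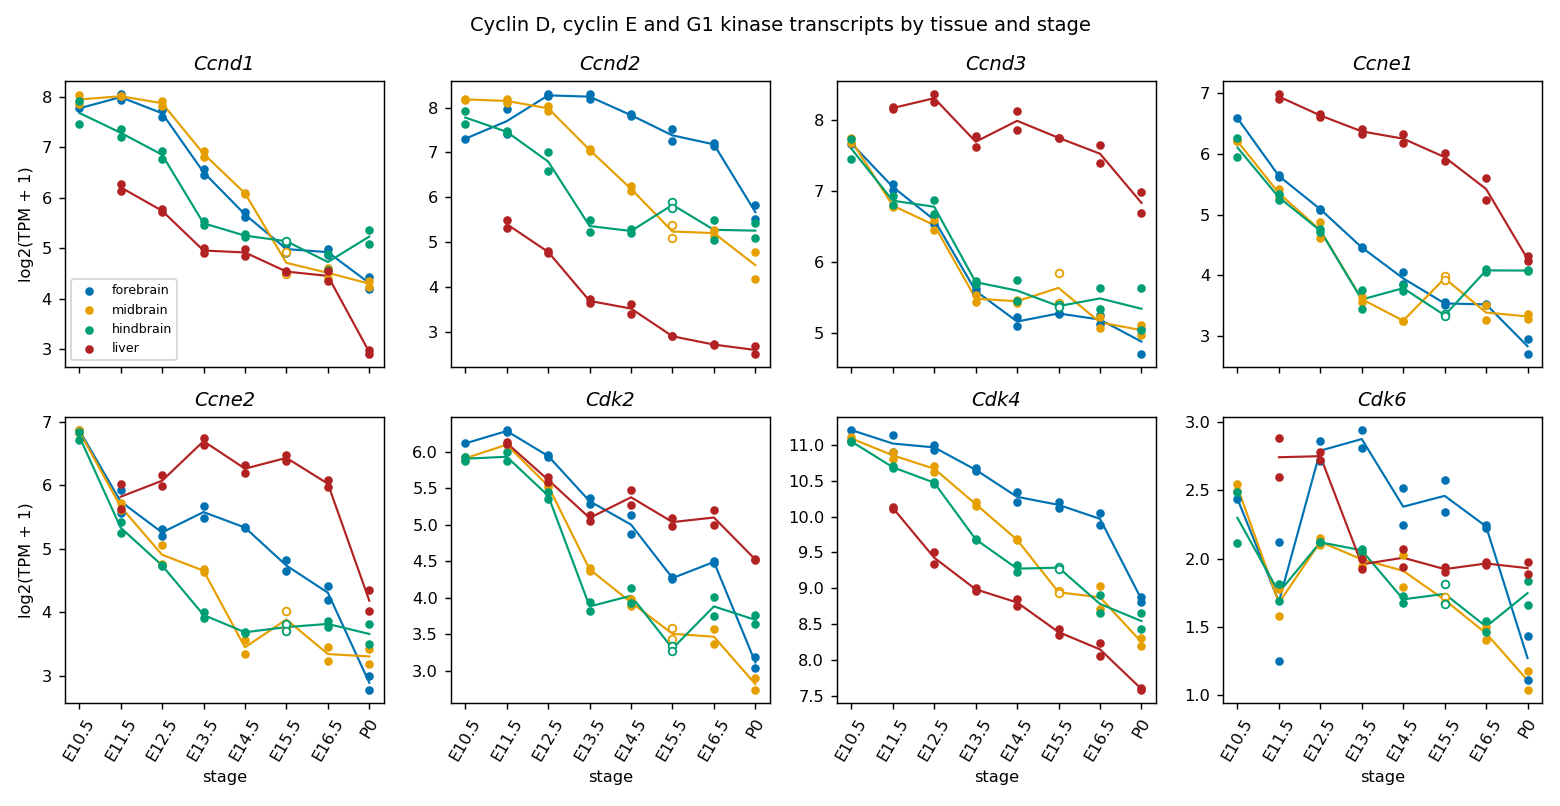
Level of each member, as log2(TPM + 1), against stage in forebrain, midbrain, hindbrain and liver. Points are libraries and lines join group means; open points are the E15.5 libraries of midbrain and hindbrain, whose Hoxb3 levels go against their labels. Ccnd3 and Ccne1 lie highest in liver at each shared stage, Ccnd1, Ccnd2 and Cdk4 in brain on TPM (Ccnd1 and Cdk4 change sides under median-of-ratios scaling), and Ccnd2 is highest in forebrain among the brain regions from E12.5 to P0.

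The D cyclins were used in different proportions in the 4 tissues. Liver carried mostly Ccnd3, forebrain carried mostly Ccnd2 from E12.5 on, midbrain held Ccnd1 and Ccnd2 at near-equal levels up to E14.5, and hindbrain held all 3 at similar levels. Ccnd3 made up 71.5% of the summed D cyclin TPM in liver at E11.5 and 80.0, 83.1, 86.5, 88.2, 87.4 and 90.6% at the 6 later stages, and it was the highest D cyclin in 14 of 14 liver libraries (70.6 to 91.1%). In forebrain, by contrast, Ccnd3 was the highest in 0 of 15 libraries. Ccnd2 made up 27.3, 35.0, 50.8, 68.8, 72.8, 70.8, 69 and 51.4% of forebrain D cyclin TPM from E10.5 to P0, and was the highest in 12 of 15 libraries. The remaining 3 forebrain libraries had Ccnd1 highest. In midbrain Ccnd2 was the highest in 12 of 16 libraries and Ccnd3 in 4, while in hindbrain Ccnd2 led in 8, Ccnd3 in 7 and Ccnd1 in 1 of 16. Without the E15.5 libraries Ccnd2 led in 12 and Ccnd3 in 2 of 14 midbrain libraries, and Ccnd2 led in 6, Ccnd3 in 7 and Ccnd1 in 1 of 14 hindbrain libraries. Shares compare levels per length within a library, so no scaling common to all genes of a library moves them; they are given as a description.

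**Figure D2:**
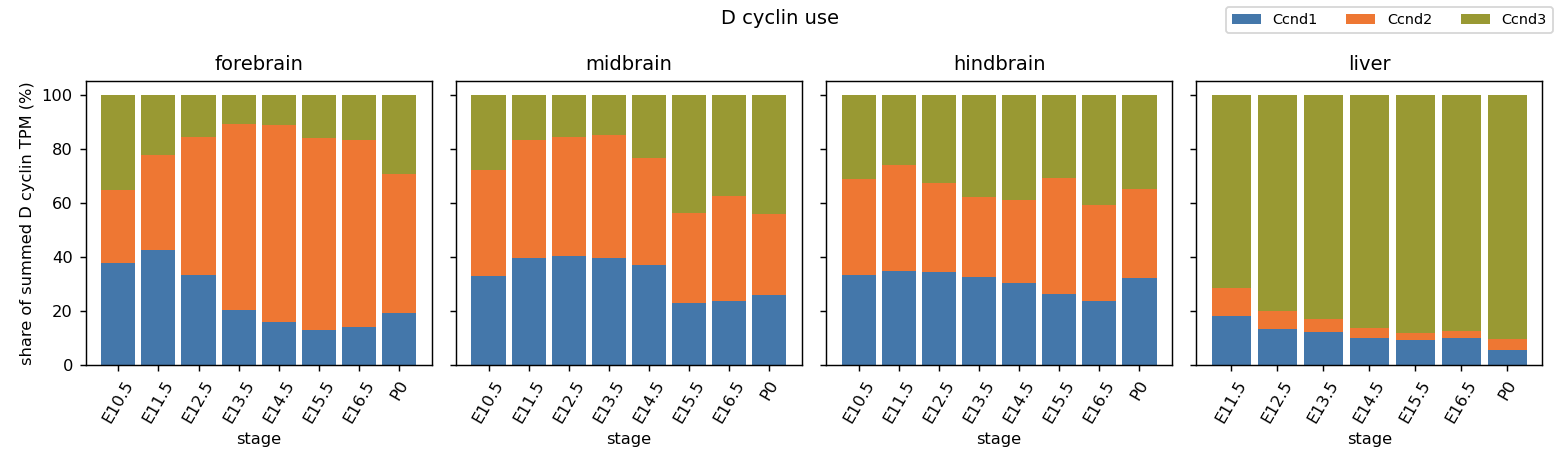
Share of Ccnd1, Ccnd2 and Ccnd3 in the summed D cyclin TPM (percent, mean of the libraries of a group) at each stage in forebrain, midbrain, hindbrain and liver. Ccnd3 fills 71.5 to 90.6% of the bars in liver, and Ccnd2 reaches 72.8% in forebrain at E14.5.

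Ccnd1, the D cyclin known as a target of Wnt and growth factor signals, was abundant in early brain. Its mean in midbrain was 245, 256, 233, 116, 66.9, 25.4, 21.8 and 18.7 TPM from E10.5 to P0, with the steepest part of the course between E12.5 and E15.5. Forebrain followed with 217, 253, 203, 89.7, 49.8, 30.6, 29.3 and 18.9 TPM. The hindbrain means were lower at E13.5, at 44.0 TPM, and stood at 25.6 TPM at E16.5 and 36.6 TPM at P0. Liver had 72.8 TPM at E11.5 and 52.4, 29.98, 29.2, 22.2, 20.9 and 6.68 TPM after that.

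Between E11.5 and P0, Ccnd1 fell in every tissue. Forebrain libraries held 17.2 and 20.6 TPM at P0, against 242 and 264 TPM at E11.5 (log2 difference -3.68 ± 0.12, SE; limma adjusted p = 9.6e-24). Midbrain libraries held 19.4 and 17.9 TPM at P0, against 255 and 257 TPM at E11.5 (-3.71 ± 0.12). The groups did not overlap, and the P0 level was 7.45% of that at E11.5 in forebrain and 7.28% in midbrain. Hindbrain held 33.1 and 40.2 TPM at P0, against 146 and 164 TPM at E11.5 (-2.06 ± 0.12), and kept 23.6% of its E11.5 level. Liver held 6.86 and 6.5 TPM at P0, against 69.04 and 76.5 TPM at E11.5 (-3.26 ± 0.12).

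Ccnd2, a D cyclin known from intermediate progenitors of the cortex and from cerebellar precursors, was the member whose level differed between brain regions past the threshold. In forebrain its mean was 157 TPM at E10.5 and 210, 308, 302, 227, 166, 144 and 50.3 TPM at the later stages, so it was higher at E12.5 and E13.5 than before or after. Forebrain E12.5 and E13.5 lie outside the 29 libraries set apart by Rps12l1 and Rpl30-ps9, and E11.5 and E14.5 within them. Steps between these cannot be told apart from that split. Forebrain E10.5 and E15.5, also outside, held 157 and 166 TPM. In midbrain the means were 289, 283, 252, 132, 72.1, 37.0, 35.9 and 22.0 TPM, and in hindbrain 219, 175, 111, 40.3, 37.1, 56.1, 38.3 and 37.6 TPM. At E14.5 the forebrain libraries held 230 and 223 TPM, against 69.2 and 74.9 TPM in midbrain and 38.0 and 36.2 TPM in hindbrain, with no overlap.

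Over the 7 stages from E11.5 to P0, Ccnd2 averaged higher in forebrain than in midbrain by 1.14 ± 0.06 on the log2(TPM + 1) scale (limma adjusted p = 1.3e-17). It was higher than in hindbrain by 1.57 ± 0.06 (adjusted p = 9.41e-22). It was the only member called in either comparison, against 2.73% of all genes called in the first and 4.32% in the second; a call took an adjusted p below 0.05 and a log2 difference of at least 1. Without the E15.5 libraries of midbrain and hindbrain the first difference was 0.97, short of the call. Averages used only stages left in all 4 tissues, so forebrain E15.5 dropped out as well. Midbrain and hindbrain differed in none of the 8 members by that rule, with 5 members at an unadjusted limma p below 0.05 and 0.97% of all genes called. Their Ccnd2 levels differed by 0.44 ± 0.06. This comparison includes the E15.5 libraries that go against their labels. Without those libraries no member was called either, while 328 genes in all were called, against 181 with them.

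Ccnd2 also fell in all 4 tissues. Midbrain libraries held 26.7 and 17.3 TPM at P0, against 274 and 292 TPM at E11.5 (-3.66 ± 0.16). Forebrain libraries held 44.7 and 55.8 TPM at P0, against 170 and 250.7 TPM at E11.5 (-2.02 ± 0.16). The drop was smaller in forebrain by 1.63 ± 0.23 (limma adjusted p = 2.4e-06), where 3.26% of all genes were called in this direction. The E11.5 libraries of forebrain spanned a wider range than those of midbrain. For some columns, the midbrain P0 library of 17.3 TPM among them, the sample record gives another stage. The difference was 1.33 without these columns and 1.15 with them at the stage of their record. Midbrain P0, unlike forebrain P0, lies outside the 29 libraries set apart by Rps12l1 and Rpl30-ps9. The difference cannot be told apart from that split. Hindbrain held 33.3 and 41.8 TPM at P0, against 172 and 178 TPM at E11.5 (-2.20 ± 0.16). Liver, lowest of the 4 tissues at every shared stage, held 5.45 and 4.73 TPM at P0, against 38.9 and 44.0 TPM at E11.5 (-2.80 ± 0.16).

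Ccnd3, the D cyclin known for its role in erythroid and lymphoid cells, ran the other way between tissues. Its liver means were 287, 316, 207, 254, 214, 184 and 114 TPM from E11.5 to P0, above each brain mean at the same stage. The brain regions shared 1 course, near 203, 209 and 193 TPM at E10.5 in forebrain, midbrain and hindbrain, 132, 110 and 116 TPM at E11.5, and 28.6, 31.9 and 40.4 TPM at P0. Liver libraries held 125 and 102 TPM at P0, against 284 and 290 TPM at E11.5 (-1.34 ± 0.15). That fall lost its call, with values of -0.16, -0.66 and -0.84, under median-of-ratios scaling, with quantile normalization and after leaving out genes of 10000 TPM or more. In brain Ccnd3 fell by 2.18 ± 0.15 in forebrain, 1.75 ± 0.15 in midbrain and 1.52 ± 0.15 in hindbrain.

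The E cyclins stood close to each other in brain at E11.5 and apart in forebrain at mid-gestation. Ccne1 had means of 95.3, 48.7, 33.0, 20.96, 14.45, 10.6, 10.4 and 6.12 TPM in forebrain from E10.5 to P0. Ccne2 had 116, 53.0, 37.3, 46.9, 39.3, 25.7, 18.9 and 6.47 TPM there, with a second maximum at E13.5 that Ccne1 did not show. The Ccne2 share of the pair was thus 51.9% at E11.5, 73.2% at E14.5 and 51.4% at P0, and Ccne2 was the higher of the 2 in 14 of 15 forebrain libraries. Rps12l1 differs between the E12.5 and E13.5 libraries, and the rise of forebrain Ccne2 between them cannot be told apart from that difference. In midbrain the Ccne2 share peaked at E13.5 (68.5%), with the same limit. In hindbrain the Ccne2 share ranged between 42.4 and 61.4%, with Ccne1 the larger part at E14.5, E16.5 and P0. At E15.5 the Ccne2 share was 58.15% in the libraries labelled hindbrain and 49.0% in those labelled midbrain, which go against their labels.

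Liver used the E cyclins in another order of stages. Ccne1 stood at 122, 98.4, 81.9, 75.3, 60.8, 42.2 and 18.3 TPM from E11.5 to P0. Ccne2 stood at 56.0 and 66.3 TPM at E11.5 and E12.5, reached 102 TPM at E13.5 and was at 75.7, 85.2, 64.1 and 17.3 TPM from E14.5 to P0. Ccne1 therefore made up 39.6% of cyclin E TPM at E16.5, against 68.8% at E11.5, and Ccne2 was the higher in 8 of 14 liver libraries.

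**Figure D3:**
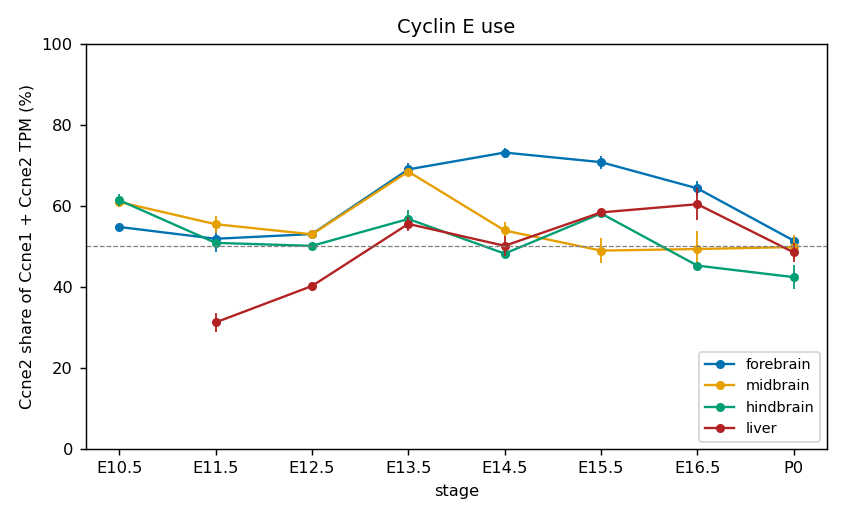
Share of Ccne2 in the summed TPM of Ccne1 and Ccne2 (percent) by stage in forebrain, midbrain, hindbrain and liver; points are group means and vertical lines span the libraries. The forebrain share reaches 73.2% at E14.5, and the liver share is 60.4% at E16.5, against 31.2% at E11.5.

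Both E cyclins fell in each tissue. Ccne1 held 5.50 and 6.73 TPM in forebrain at P0, against 49.1 and 48.4 TPM at E11.5 (-2.81 ± 0.11, limma adjusted p = 1.47e-22). In hindbrain it held 15.9 and 15.8 TPM at P0, against 36.6 and 39.3 TPM at E11.5 (-1.21 ± 0.11). Hindbrain thus kept 41.8% of its E11.5 level and forebrain 12.6%. Midbrain fell by 2.04 ± 0.11 and liver by 2.68 ± 0.11. For Ccne2 the falls were 2.85 ± 0.13 in forebrain, 2.35 ± 0.13 in midbrain, 1.67 ± 0.13 in hindbrain and 1.63 ± 0.13 in liver. The liver fall of Ccne2 lost its call under median-of-ratios scaling (-0.50) and under quantile normalization (-0.73).

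Cdk4 was by far the most abundant kinase. Its means were 2360, 2079, 1997, 1608, 1239, 1146, 1002 and 460 TPM in forebrain from E10.5 to P0, and 2176, 1850, 1625, 1154, 817, 492, 471 and 304 TPM in midbrain. Liver ran from 1112 TPM at E11.5 through 446 TPM at E14.5 to 193 TPM at P0. Cdk6, the other partner of the D cyclins, stood between 1.05 and 6.69 TPM in all 61 libraries. The Cdk4 level was 65.4 to 1636 times that of Cdk6, with a median of 273, so Cdk4 made up 98.5 to 99.9% of the pair in each library.

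Cdk4 fell in every tissue. It held 471 and 448 TPM in forebrain at P0, against 2242 and 1916 TPM at E11.5 (-2.17 ± 0.09). It held 194 and 191 TPM in liver at P0, against 1100 and 1125 TPM at E11.5 (-2.52 ± 0.09). It fell by 2.60 ± 0.09 in midbrain and by 2.14 ± 0.09 in hindbrain.

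Cdk6 was the exception among the 8. It held 1.16 and 1.69 TPM in forebrain at P0, against 1.37 and 3.35 TPM at E11.5, groups that overlapped, with a log2 difference of -0.41 ± 0.16. Without the E11.5 library of 3.35 TPM the difference was 0.02. The values were -0.57 ± 0.16 in midbrain, -0.01 ± 0.16 in hindbrain and -0.81 ± 0.16 in liver, none of them called. The stage course told more: forebrain means were 4.42, 2.36, 5.94, 6.36, 4.23, 4.52, 3.71 and 1.43 TPM, and the F test over stages called forebrain (range of stage means 1.61, adjusted p = 6.7e-11) and midbrain (1.42, adjusted p = 1.43e-08). That test called 8 of 8 members in forebrain and midbrain and 7 of 8, each except Cdk6, in hindbrain and liver. In these 4 tissues 51.9, 53.7, 50.8 and 63.6% of all genes were called. With a pseudocount of 0.1 Cdk6 was called in hindbrain (1.06) and liver (1.01) too, and in hindbrain also under quantile normalization (1.27). The liver count was 5 under median-of-ratios scaling and 6 under quantile normalization, where 7690 and 7430 of 18655 genes were called. Among the 29 libraries set apart by Rps12l1 and Rpl30-ps9, the midbrain range of Cdk6 was 0.46 and not called. At these low levels the log2(TPM + 1) scale understates changes.

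Cdk2, the partner of the E cyclins, stood near 60 to 77 TPM in brain at E11.5 and at 68.6 TPM in liver. It held 7.21 and 8.17 TPM in forebrain at P0, against 77.7 and 76.3 TPM at E11.5 (-3.17 ± 0.09). Midbrain held 6.46 and 5.69 TPM at P0, against 67.9 and 67.1 TPM at E11.5 (-3.28 ± 0.09). Both regions thus kept 9.98 and 9.0% of their E11.5 level. Hindbrain held 11.46 and 12.56 TPM at P0, against 57.7 and 62.6 TPM at E11.5 (-2.23 ± 0.09). Liver held 22.0 and 22.1 TPM at P0, against 67.9 and 69.3 TPM at E11.5 (-1.60 ± 0.09), and this fall lost its call under median-of-ratios scaling (-0.45) and under quantile normalization (-0.70).

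**Figure D4:**
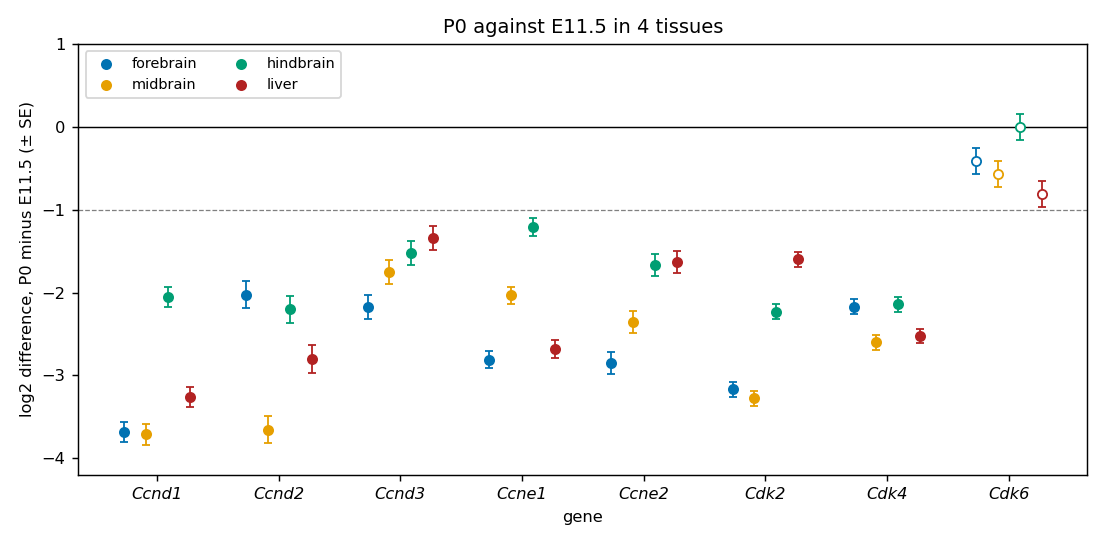
Log2 difference, P0 minus E11.5, of each member in forebrain, midbrain, hindbrain and liver, on the log2(TPM + 1) scale with its standard error. Filled points were called, open points were not, and the dashed line marks -1. Every member except Cdk6 lies below -1 in each tissue.

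In sum over the 8, 7 were called lower at P0 than at E11.5 in each tissue, each except Cdk6. Of all tested genes, 11.8% were called lower in forebrain, 15.1% in midbrain, 11.8% in hindbrain and 38.2% in liver, so the liver count stands against a much larger background. The median log2 difference of the 8 was -2.50, -2.48, -1.86 and -2.08 in forebrain, midbrain, hindbrain and liver, beside 0.02, -0.01, -0.02 and -0.69 for all genes. In liver, 4 members (Ccnd1, Ccnd2, Ccne1 and Cdk4) were called under median-of-ratios scaling and under quantile normalization. Of all 18655 tested genes, 1546 were called lower in liver under the first and 2424 under the second, against 7120 on TPM. The brain counts of 7 were the same under each alternative that could be fitted. Still, the midbrain comparison cannot be told apart from the split by Rps12l1 and Rpl30-ps9.

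Cell type markers moved over the same interval, and their part in these falls was not tested. The 7 neural progenitor markers summed to 2123 to 2210 TPM in forebrain at P0, against 2849 to 3096 TPM at E11.5, with 6 of 7 called lower and 1 higher. Midbrain sums were 2446 to 2470 TPM at P0, against 3447 to 3470 TPM at E11.5, with the same counts. In hindbrain the sum was 3213 to 3219 TPM at P0, against 3203 to 3228 TPM at E11.5, but single markers moved: 4 of 7 were called lower and 2 higher, with a list median of -1.29. The 6 neuron markers summed to 3486 to 3907 TPM in forebrain at P0, against 1079 to 1084 TPM at E11.5; 6 were called higher in forebrain, 5 in midbrain and 3 in hindbrain. The 5 astrocyte markers were all called higher in the 3 brain regions. Of all 18655 tested genes, 3578 were called higher at P0 in forebrain, 3416 in midbrain, 3026 in hindbrain and 1519 in liver. Of the 7 erythroid markers, 6 were called lower and 1 higher in each brain region, with list medians of -2.91 in forebrain, -2.39 in midbrain and -2.27 in hindbrain. In liver the 6 hepatocyte markers summed to 145500 to 152500 TPM at P0, against 10380 to 11370 TPM at E11.5, and the 4 haematopoietic progenitor markers to 30.7 to 30.9 TPM at P0, against 104 to 112 TPM at E11.5. Of the liver myeloid markers 4 of 5, and of the B lymphoid markers 4 of 4, were called higher at P0. No marker of these lists was at 0 in every library. In bulk tissue, fewer cells of a type and less RNA per cell cannot be told apart.

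The size of the falls differed between forebrain and hindbrain for 3 members. Ccnd1 fell further in forebrain by 1.63 ± 0.18 (limma adjusted p = 6.76e-09), Ccne1 by 1.60 ± 0.15 (adjusted p = 2.37e-10) and Ccne2 by 1.18 ± 0.19 (adjusted p = 8.15e-06), where 2.94% of all genes were called in this direction. Cdk2 differed the same way by -0.94 ± 0.13, below the fold threshold. Ccnd2 (0.17 ± 0.23) and Cdk4 (-0.03 ± 0.13) gave no call. At P0 forebrain held 18.9 TPM of Ccnd1, 6.12 TPM of Ccne1 and 6.47 TPM of Ccne2, against 36.6, 15.9 and 11.7 TPM in hindbrain. The astrocyte markers summed to 379 to 419 TPM in forebrain and 1064 to 1101 TPM in hindbrain at P0, and the oligodendrocyte lineage markers to 99.8 to 115 TPM and 177 to 230 TPM; their part in the difference was not tested.

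Between brain and liver, the fall of Cdk2 was larger in brain by 1.297 ± 0.105 (adjusted p = 1.71e-13), the single member called, while 9.32% of all genes were called in this direction and 38.6% in the other. With median-of-ratios scaling and with quantile normalization 3 members were called, and without genes of 10000 TPM or more 2 were. In the same order, 7226 and 6937 of 18655 genes and 8065 of 19130 were called in either direction. The difference for Ccne1 was 0.66 ± 0.12 on TPM, not called, and -0.35 and -0.40 under those 2 scalings.

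The levels themselves divided the members between brain and liver. Averaged over the 7 shared stages, 6 of 8 were called (53.3% of all genes were), 3 higher and 3 lower in brain, where 44% of all genes were called higher and 9.33% lower. Ccnd2 averaged 130 TPM in the brain regions and 15.4 TPM in liver, a log2 difference of 2.90 ± 0.05 (adjusted p = 2.67e-34). Ccnd3 averaged 60.2 TPM in the brain regions and 225 TPM in liver (-1.99 ± 0.05). Ccne1 averaged 18.6 TPM in the brain regions and 71.3 TPM in liver (-1.91 ± 0.03), and Ccne2 23.9 TPM in the brain regions and 66.7 TPM in liver (-1.54 ± 0.04). These 4 calls were kept under each alternative setting. The B lymphoid, erythroid and myeloid markers, lower in brain in 4 of 4, 6 of 7 and 5 of 5 cases, moved with the members that were lower in brain, and so did 6 of 6 hepatocyte markers (list median -9.53). Of the 4 haematopoietic progenitor markers, 3 were called higher and 1 lower in brain (list median 1.095). The erythroid markers summed to 919 to 2123 TPM in the brain regions and 65510 to 68770 TPM in liver at P0, and to 8729 to 12030 TPM in the brain regions and 34030 to 35270 TPM in liver at E11.5. Their part in the result was not tested.

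Ccnd1 and Cdk4 were called higher in brain on TPM, but their direction depended on the scaling. Ccnd1 averaged 88.5 TPM in the brain regions and 33.4 TPM in liver (1.10 ± 0.04), and Cdk4 1057 TPM in the brain regions and 509 TPM in liver (1.03 ± 0.03). The median of all genes lay at 0.82 in this comparison and at 0.02 after median-of-ratios scaling, which gave Ccnd1 -0.07 and Cdk4 -0.18. Both calls were also lost, at 0.998 and 0.990, without the E12.5 libraries. Cdk2 (-0.78 ± 0.03) and Cdk6 (-0.26 ± 0.05) were not called on TPM and were called lower in brain under median-of-ratios scaling (-1.95 and -1.22) and also with quantile normalization (-1.77 and -1.45).

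**Figure D5:**
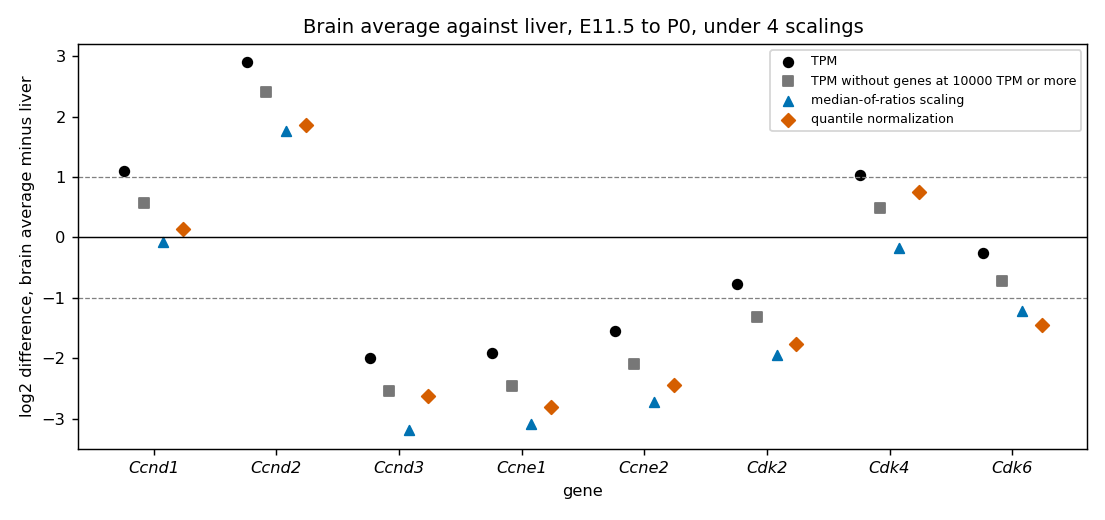
Log2 difference, brain average minus liver over E11.5 to P0, for each member under TPM, TPM without genes of 10000 TPM or more, median-of-ratios scaling and quantile normalization. Dashed lines mark 1 and -1. Ccnd2 stays above 1 and Ccnd3, Ccne1 and Ccne2 below -1 under all 4, while Ccnd1 and Cdk4 cross 0 under median-of-ratios scaling.

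At E11.5, 5 members were called and 29.5% of all genes (20.9% higher and 8.64% lower in brain). Ccnd1 (222 TPM in the brain regions and 72.8 TPM in liver, 1.56 ± 0.10) and Ccnd2 (223 and 41.5 TPM, 2.36 ± 0.13) were higher in brain. Ccnd3 (119 TPM in the brain regions and 287 TPM in liver, -1.26 ± 0.12), Ccne1 (42.2 and 122 TPM, -1.52 ± 0.09) and Cdk6 (2.31 and 5.73 TPM, -1.04 ± 0.13) were lower in brain. The Cdk6 value was -0.90 without the first forebrain E11.5 library and -0.90 without the second liver E11.5 library, short of the call. At P0, 4 members were called and 61.4% of all genes (49.4% higher and 12.1% lower in brain): Ccnd1 (1.67 ± 0.10) and Ccnd2 (2.54 ± 0.13) higher, Ccnd3 (-1.75 ± 0.12) and Cdk2 (-1.31 ± 0.07) lower in brain. At P0, 6 members were called under median-of-ratios scaling, under quantile normalization and without genes of 10000 TPM or more. In the same order, 9597 and 9131 of 18655 genes and 10714 of 19130 were called in either direction. Ccnd1 lost its call under both scalings (0.32 and 0.42), while Ccne1 (-2.27 and -2.17), Ccne2 (-2.30 and -2.23) and Cdk6 (-1.70 and -1.80) gained one as lower in brain. Without genes of 10000 TPM or more, Ccne1 (-1.33) and Ccne2 (-1.37) were called lower.

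Other genes of the G1/S pathway moved beside the members. Most lists are given by their counts, against the background shares above. All 16 genes of replication licensing and forks were called lower at P0 than at E11.5 in each of the 4 tissues, with list medians of -3.16, -3.23, -2.25 and -2.06 in forebrain, midbrain, hindbrain and liver. Mcm3, a subunit of the replicative helicase, stood at -4.07 ± 0.12 in forebrain, -4.03 ± 0.12 in midbrain, -2.71 ± 0.12 in hindbrain and -2.22 ± 0.12 in liver. Cdc6, which loads that helicase, stood at -3.94 ± 0.11 in forebrain and -2.74 ± 0.11 in hindbrain. Of the 6 genes for S, G2 and M cyclins and their kinase, 5 were lower in each tissue, with the mitotic cyclin gene Ccnb1 at -4.00, -4.53, -2.76 and -1.82 ± 0.13. Among the 16 replication genes, 9 fell further in forebrain than in hindbrain, led by the licensing factor gene Cdt1 (-1.71 ± 0.23). The liver counts depended on the scaling: 6 replication genes were called lower under median-of-ratios scaling and 10 under quantile normalization, and 0 of the 6 S, G2 and M genes were under either, with Ccnb1 at -0.65 and -0.98.

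E2F and DP factors, which act downstream of the D cyclin kinases, were lower at P0 in 10 of 10 cases in forebrain, midbrain and hindbrain. Under median-of-ratios scaling 9 were lower in midbrain and 8 in hindbrain. In liver 8 were lower and 1, E2f2, was higher at 1.15; 3 were lower under median-of-ratios scaling and 4 under quantile normalization. Of the 3 pocket protein genes, Rbl1, which encodes p107, was lower in each tissue (-2.51, -2.48, -1.59 and -1.27 ± 0.10 in forebrain, midbrain, hindbrain and liver), and Rb1 and Rbl2 were not called. The liver value of Rbl1 was -0.18 under median-of-ratios scaling and -0.44 under quantile normalization, neither called. Skp2, which marks the inhibitor p27 for degradation, was lower by 2.86, 3.06, 2.48 and 3.28 ± 0.08, and the phosphatase gene Cdc25a by 2.22, 2.44, 1.90 and 2.44 ± 0.10 in the same order. These values are on TPM only. Both genes were named for the size of their change, from a list for CDK activation and cyclin turnover. That list also holds Cdk7, Ccnh, Mnat1, Cks1b, Fbxw7, Fbxo4 and Ambra1, and its counts are not given here.

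CDK inhibitors did not move as a block. Of 6 tested, Cdkn1a, which encodes p21, was higher at P0 in forebrain (1.77 ± 0.16), midbrain (2.98 ± 0.16), hindbrain (2.49 ± 0.16) and liver (2.98 ± 0.16). Cdkn1c, which encodes p57, was lower in the same tissues, at -1.84, -2.37, -2.55 and -3.81 ± 0.15. Cdkn2c, which encodes the CDK4 and CDK6 inhibitor p18, was lower in midbrain (-1.14 ± 0.13), where the value was -0.98 and not called under median-of-ratios scaling. It averaged higher in forebrain than in midbrain (1.11 ± 0.05) and hindbrain (1.15 ± 0.05). Without the E15.5 libraries of midbrain and hindbrain, and so without E15.5 in the averages, these values were 1.08 and 1.06, both called.

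Upstream of the D cyclins, 6 of 9 mitogen response genes averaged higher in brain than in liver and 0 lower, with a list median of 1.93 beside 0.82 for all genes; under median-of-ratios scaling and under quantile normalization 4 were higher and 2 lower. Mycl (4.82 ± 0.03), Axin2, a Wnt target (3.73 ± 0.04), and Mycn (3.19 ± 0.04) led the list. At E11.5 Myc was lower in brain by 3.24 ± 0.13. Gli1, a target of Hedgehog signals, was lower at P0 than at E11.5 in forebrain (-1.98 ± 0.12), midbrain (-2.40 ± 0.12) and liver (-2.94 ± 0.12), and the fall was larger in forebrain than in hindbrain by 1.27 ± 0.17. The replication list went the other way between the tissues, with 12 of 16 genes lower in brain and a list median of -1.20.

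Ordered by level over the 31 tissue and stage groups, the members had different ends. Ccnd1 was highest in midbrain E11.5 (256 TPM) and lowest in liver P0 (6.68 TPM), and Ccnd2 highest in forebrain E12.5 (308 TPM) and lowest in liver P0 (5.09 TPM), a 60.5-fold span. Ccnd3 ran from 316 TPM in liver E12.5 to 28.6 TPM in forebrain P0, and Ccne1 from 122 TPM in liver E11.5 to 6.12 TPM in forebrain P0. Ccne2 and Cdk4 were highest in forebrain E10.5, and Cdk2 in forebrain E11.5. Neighbouring groups in that order overlapped often: in 19 of 30 neighbouring pairs for Ccnd1, 16 for Ccnd2, 20 for Ccnd3, 13 for Ccne1, 19 for Ccne2, 13 for Cdk2, 15 for Cdk4 and 26 for Cdk6, whose whole span was 5.50-fold.

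Likeness of course was measured as Pearson's r of log2(TPM + 1) over the 31 group means. All r values use the same libraries and are given as a description. Among the members, Ccnd3 and Ccne1 were most alike (0.96), followed by Ccnd1 and Cdk4 (0.92), Ccnd2 and Cdk4 (0.91) and Ccne1 and Ccne2 (0.91). Ccnd2 was unlike Ccnd3 (-0.18) and Ccne1 (-0.04). Among 11579 protein-coding genes averaging 5 TPM or more, those most like Cdk2 were Tacc3, a spindle gene (0.99), Uhrf1, needed to copy DNA methylation (0.99), and the centromeric histone gene Cenpa (0.99). Those most like Cdk4 were Rhno1 (0.99), Sinhcaf (0.98) and Suv39h2 (0.98). Ccnd1 was most like Siah1b (0.97), Nup50 (0.97) and Jpt2 (0.96), and Ccnd2 most like Mfng (0.97), Sap30 (0.96) and Cdon (0.96). Ccnd3 was most like Mogat2 (0.98), Dusp9 (0.98) and Net1 (0.97), and Ccne1 most like Dusp9 (0.97), Eef1d (0.97) and Slc16a3 (0.96). Ccne2 was most like Cep128, Zfp367 and the mitotic kinase gene Aurka, each at 0.95. No gene matched Cdk6 as closely; the highest was Zfp524 at 0.77.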

How the data were processed

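RNA from forebrain, midbrain, hindbrain and liver was sequenced from libraries made with a stranded mRNA kit, per the labels' protocols. The authors deposited TPM values for 61 libraries in 1 table. The submitters' processing notes list STAR 2.4.0k, RSEM 1.2.23 and build mm10; which tool did what, and with which annotation, is not given in the sources used here. TPM keeps no read counts, so depth and counting error are unknown. TPM also gives shares of a whole: a few very abundant liver transcripts can lower the values of other genes. Columns were placed by the tissue and stage in their header; for 4 of them (midbrain and hindbrain, E16.5 and P0) the sample record gives another stage, and these are called unnumbered. Symbols came from GENCODE M21. Libraries are not stated to come from separate animals, so p-values measure the spread between libraries, which may be technical.

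The 18655 genes that reached 1 TPM in 2 or more libraries were tested as log2(TPM + 1) with limma 3.58.1 in R 4.3.3, with 1 mean per tissue and stage, 30 residual degrees of freedom and a variance trend. All p-values are two-sided and adjusted by Benjamini-Hochberg over all tested genes within a comparison. Fold changes on this scale understate the change of low genes. The fit was tested on simulated data. Matching the members to the table used no measured values. The members, the pathway lists, the marker lists and the settings were still chosen with earlier results of these data known. Named genes were the 8 members, the 3 genes most like each, and up to 3 called genes of largest change per pathway list and comparison; E2f2 in liver, Rb1 and Rbl2 were named after their values were seen. Alternatives were a pseudocount of 0.1, no filter, median-of-ratios scaling, quantile normalization and leaving out 23 genes at 10000 TPM or more. Others were a replicate block and other placements of the unnumbered columns. Libraries left out were E12.5, the E15.5 midbrain and hindbrain libraries, or each library in turn. A further setting, chosen after seeing the data, used only the 29 libraries set apart by Rps12l1 and Rpl30-ps9. Averages over stages used only the stages left in all 4 tissues, so leaving out midbrain and hindbrain E15.5 dropped E15.5 in each tissue.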

Additional observations from a re-analysis of the deposited data

Results flagged for a closer look

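A total of 5 results were marked because the change between E11.5 and P0 differed between tissues in a test of that difference itself. The fall of Cdk2 was larger in the brain average than in liver, with a difference of changes of -1.3. Ccnd2 fell less in forebrain than in midbrain, with a difference of 1.63. That difference was 1.33 without the unnumbered columns and 1.15 with them at the stage of their record. Ccnd1, Ccne1 and Ccne2 fell further in forebrain than in hindbrain, with differences of -1.63, -1.6 and -1.18. The Cdk2 difference was -2.31 under median-of-ratios scaling. Neither it nor the Ccnd2 difference, which both use midbrain P0, could be computed within the 29 libraries set apart by Rps12l1 and Rpl30-ps9. In those libraries the 3 forebrain-hindbrain differences were -1.49, -1.61 and -1.02 for Ccnd1, Ccne1 and Ccne2.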

How the results depend on the processing

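Over settings other than leaving out single libraries, 162 of 183 counts of called members equalled the reported count, 15 differed by 1.5 times or less and 6 by more. Of 1464 member values, 1380 stayed on the same side of the call with the same direction. Another 22 member values lost the call, 23 gained it and 39 changed sign. Dropping the filter changes no log2 difference. Leaving out E12.5 or E15.5 libraries could not change a difference between E11.5 and P0, so these totals include values fixed in advance. Counts moved by over 1.5 times as follows. In liver, P0 against E11.5, 7 called members became 4 with median-of-ratios scaling and 4 with quantile normalization. For the brain change minus the liver change, 1 became 3 with either scaling and 2 without genes of 10000 TPM or more. For forebrain against midbrain, 1 became 0 without the midbrain and hindbrain E15.5 libraries (limma, Ccnd2 at 0.97). That setting took E15.5 out of the forebrain average too. Leaving out each of the 61 libraries in turn moved none of these counts by over 1.5 times, but each comparison uses only some of them. Shares were recomputed at E11.5 and P0 only, so leaving out E12.5 or E15.5 libraries could not move them. Of 160 shares recomputed, 146 moved by less than the spread between replicates. The other 14 moved by at least that spread, all under quantile normalization or without the unnumbered columns. Depth is unknown for TPM, and Cdk6 at 1.05 to 6.69 TPM is the member where low level limits precision most. The cause of the changes was not tested.

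Values that changed sign with median-of-ratios scaling were, for the brain average against liver, Ccnd1 -0.069 and Cdk4 -0.179, and at P0 Cdk4 -0.517; for P0 against E11.5, Cdk6 0.079 in hindbrain and 0.141 in liver; for the brain change minus the liver change, Ccnd1 -0.839, Ccnd2 -0.750, Ccne1 -0.351, Cdk4 -0.850 and Cdk6 -0.379; and for the forebrain change minus the midbrain change, Ccnd1 -0.077. With quantile normalization they were, for the brain change minus the liver change, Ccnd1 -0.905, Ccnd2 -0.727, Ccne1 -0.403, Cdk4 -0.494 and Cdk6 -0.375; for midbrain against hindbrain, Cdk6 0.040; for the forebrain change minus the midbrain change, Cdk6 -0.013; and for the forebrain change minus the hindbrain change, Cdk4 0.021. Without genes of 10000 TPM or more, the brain change minus the liver change was Ccnd1 -0.235, Ccnd2 -0.152 and Cdk4 -0.192, Ccne1 was -0.007 for forebrain against hindbrain, and Cdk6 was 0.057 for P0 against E11.5 in hindbrain.

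Without E12.5, Ccne1 was -0.040 for forebrain against hindbrain. Without the midbrain and hindbrain E15.5 libraries, and so without E15.5 in the averages, that value was -0.014. There Ccnd3 was 0.007 for forebrain against midbrain. In the 29 libraries set apart by Rps12l1 and Rpl30-ps9, Ccne1 was -0.015 for forebrain against hindbrain and Ccnd3 0.006 for forebrain against midbrain. In them Ccne2 was -0.126 and Cdk6 0.028 for midbrain against hindbrain, and Cdk4 0.090 for the forebrain change minus the hindbrain change. Without the unnumbered columns that Cdk4 value was also 0.090 and the Ccnd1 forebrain change minus the midbrain change was -0.029. With those columns at the stage of their record, the forebrain change minus the midbrain change was Ccnd1 -0.059, Cdk2 -0.202 and Cdk6 -0.078.

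Leaving out single libraries kept 8276 of 8296 member values. A comparison uses only the libraries of its groups, so leaving out any other library cannot change its log2 difference. Many of these values were thus fixed in advance. Ranges that crossed 0 were Ccne1 -0.005 to 0.038 for forebrain against hindbrain; Cdk2 -0.035 to 0.004 for the brain average against liver at E11.5; Cdk6 -0.852 to 0.024 in forebrain and -0.096 to 0.084 in hindbrain for P0 against E11.5; Ccnd1 -0.094 to 0.152 and Cdk6 -0.283 to 0.593 for the forebrain change minus the midbrain change; and Ccnd2 -0.105 to 0.454, Cdk4 -0.145 to 0.090 and Cdk6 -0.846 to 0.030 for the forebrain change minus the hindbrain change.

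Replicate numbers are shared across groups. Same-numbered libraries of 2 tissues at a stage deviated together, with r over 0.1, in 10 of 33 pairs (-0.634 to 0.226). Most of the r values were above 0. Such values cannot show whether these libraries share animals, so pairing was left out of the main fit and tried as an alternative. With a replicate block no count of called members moved by over 1.5 times; Ccnd1 became -0.032 for the forebrain change minus the midbrain change and Cdk4 0.1 for the forebrain change minus the hindbrain change.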
